A study of Mus musculus with 9 samples.

Results

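Epididymal adipose tissue of mice that went back to chow after a long high-fat diet (HFD) was compared with the same depot of mice of equal age that had eaten chow throughout. The weight loss library, HHC, came from male C57BL/6J mice 39 weeks of age, with 25 weeks of HFD behind them and then 8 weeks on chow. Its control, CCC, came from male C57BL/6J mice of 39 weeks on chow, which by the methods of the study was a low-fat control diet followed by standard chow. Each library held nuclei pooled from 5 mice, both libraries carry the same sequencing set in their labels, and no allele, transgene or drug was part of the design. Members were all barcodes in which 500 to 3000 genes were detected and the UMI total did not pass 40000, where a UMI, or unique molecular identifier, stands for 1 captured RNA molecule. There were 9102 such nuclei in HHC and 5771 in CCC, together 14873 of the 76356 nuclei that met these limits in all 9 libraries. Weight loss is the study's name for the return to chow, and body weight was not analysed here. With 1 library on each side there is no spread between libraries and no test: every interval below is a 95% interval for counting error only, and a gene is called past 2-fold when its ratio is at least 2-fold and the interval of its log2 ratio excludes 0. Values of 3 further libraries are set beside the pair: CC (chow, 26 weeks of age) and HC (12 weeks of HFD and 8 of chow, 26 weeks of age) from the same sequencing set, and HH (25 weeks of HFD, 31 weeks of age) from another.

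Epididymal fat is a visceral depot in which adipocytes store and release triglycerides, while progenitors, endothelial cells, mesothelial cells and immune cells make up most of the nuclei. In obesity, macrophages gather around dying adipocytes and turn on a lipid-associated macrophage (LAM) programme of lysosomal, lipid-handling and matrix-degrading genes, of which Trem2 and Gpnmb are the best known. Resident perivascular macrophages (PVMs) carry scavenger receptors such as Lyve1, Cd163 and Mrc1, and non-perivascular macrophages (NPVMs) present antigen on MHC class II.

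The libraries differed in depth and in the nuclei that were set apart before naming. CCC held 22599619 UMIs over 6786 barcodes and HHC 66615262 over 11810, and after removal of called doublets 5489 and 8603 nuclei were kept, with medians of 2057 and 3183 UMIs. Barcodes above the upper gene limit, which were left out, were 22.2% of those of HHC and 11% of those of CCC. Set apart were 2962 nuclei of CCC (54.0%) and 1664 of HHC (19.3%), against 1.05% in CC and 2.41% in HC, and the reason differed in part. All 1664 of HHC and 11 of CCC lay in low-count clusters with markers of more than 1 class. Of the 1664, 1549 also met the rule described next, with B cell as their class. The other 2951 of CCC lay in clusters in which both the marker share and the median UMIs were low against the best cluster of the same class in that library, and for 2640 of them that class was adipocyte. The largest such group, 1748 nuclei of CCC, had a median of 2070.5 UMIs, close to that of its library, and 54.4 UMIs of adipocyte markers per 10000. The same cluster was kept in CC, with 389 nuclei, a median of 1471 UMIs and 59.3 of these marker UMIs per 10000. In these set-apart nuclei the 10 adipocyte markers made up 50.2 UMIs per 10000 in CCC and 20.8 in HHC, and the 14 LAM programme genes 20.7 and 225. This left 2527 nuclei of CCC and 6939 of HHC for the cell classes, which were named from marker lists and carry the suffix "-like". HHC and CCC shared 15 barcodes, 0.260% of the nuclei of CCC. Of its markers the adipocyte-like cluster had 10 of 10, the mesothelial-like cluster 9 of 9 and the largest macrophage-like cluster 11 of 14. A further macrophage-like cluster, 275 nuclei of HHC and 58 of CCC, had 4 of the 14 and was led by Skint3, Klra2 and Sirpb1a, so its name rests on few markers.

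Genes of an abundant class were also read in the other classes, at levels that differed between the libraries. LAM programme genes gave 173 UMIs per 10000 in LAM-like nuclei of HHC, 76.9 in T or NK cell-like, 66.6 in B cell-like, 49.5 in progenitor-like and 46.5 in mesothelial-like nuclei, none of which should express Trem2 or Mmp12. In CCC the same genes gave 62.8 in LAM-like nuclei and between 4.35 and 11.2 in the named classes other than macrophage-like and adipocyte-like nuclei. Adipocyte markers went the other way, with 17.1 UMIs per 10000 in mesothelial-like nuclei of CCC and 5.26 in those of HHC. Levels are given in counts per 1000000 UMIs of the class (CPM). For each gene the CPM read in mesothelial-like nuclei serves as its background in that library. Where the mesothelial-like class is described, the CPM in endothelial-like nuclei serves instead. In classes other than mesothelial-like and endothelial-like nuclei, counts of all genes past a multiple of the background used a stricter level. That level was the higher of the mesothelial-like and endothelial-like CPM. Counts within gene lists there used the mesothelial-like CPM alone. The part of the background in a difference was not tested. Empty droplets, which would show free RNA, were not analysed here.

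**Figure D1:**
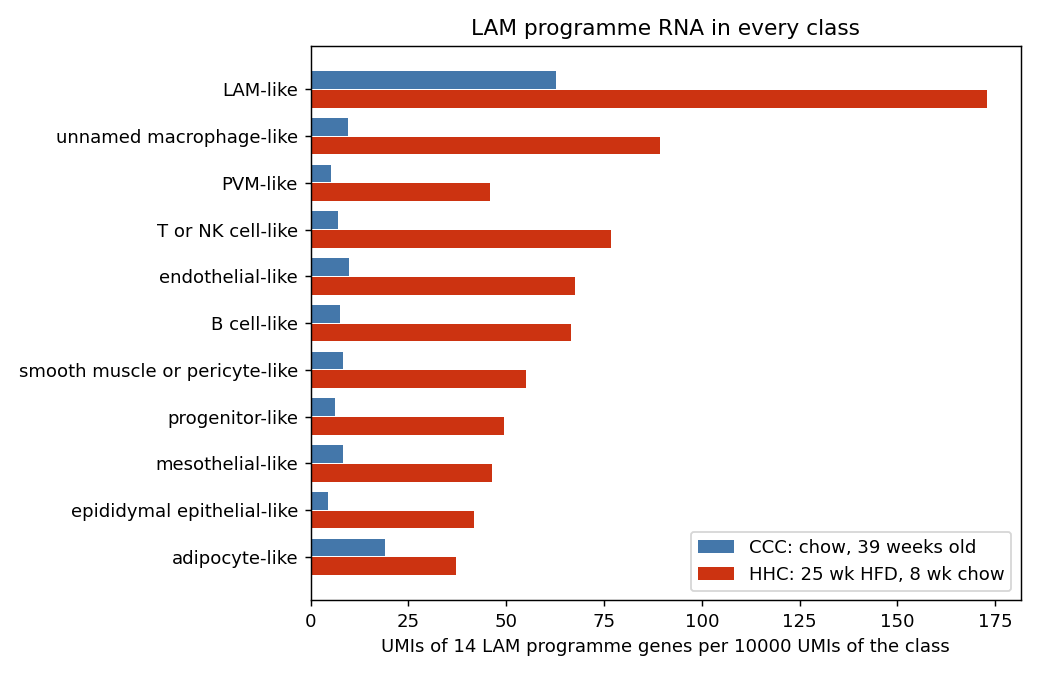
UMIs of the 14 LAM programme genes per 10000 UMIs of each class (x axis) in CCC (blue) and HHC (red), for kinds of macrophage and for other classes (y axis). Of the classes drawn, LAM-like nuclei of HHC held the most, 173, while T or NK cell-like nuclei held 76.9 in HHC and 6.90 in CCC.

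Macrophage-like nuclei made up a far larger share after weight loss, and adipocyte-like and epididymal epithelial-like nuclei a smaller one. Macrophage-like nuclei were 2804 of 6939 in HHC, 40.4% (39.3 to 41.6, Clopper-Pearson), and 402 of 2527 in CCC, 15.9% (14.5 to 17.4), a difference of 24.5 percentage points (22.6 to 26.3). The share in HHC lay nearer to the 46.5% of HH, the library after 25 weeks of HFD, than to the 11.9% of CC, and HC had 25.1%. The gap hardly moved when every kept nucleus was the denominator, at 25.3 points. Counts of nuclei cannot tell more macrophages from fewer nuclei of other types in the suspension.

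Adipocyte-like nuclei were 268 in HHC, 3.86%, and 379 in CCC, 15%, which is 11.1 points lower in HHC (12.6 to 9.71 lower) on a scale where CC had 30.9%, HC 16.1% and HH 3.15%. Of the set-apart nuclei 2640 of CCC and none of HHC were in adipocyte clusters, and CC kept most of its own, so neither these shares nor those over every kept nucleus are on the same footing in the libraries. The difference depended on how the nuclei were handled and on the control: it was -3.79 points with every kept nucleus as the denominator, -18.0 when set-apart nuclei were kept and named, -26.5 with called doublets kept, where fewer nuclei of CCC were set apart as well, and -27.0 with CC as the control. Epididymal epithelial-like nuclei, which come from the adjoining epididymis, were 1.48% against 16.9%, a difference of -15.5 points that was -6.60 over every kept nucleus and -27.0 with set-apart nuclei kept, and the part of dissection in this was not tested. Mesothelial-like nuclei were 4.68% against 9.46%, a difference of -4.77 points that shrank to -0.576 with every kept nucleus as the denominator.

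Progenitor-like nuclei were 30.7% in HHC and 25.3% in CCC, higher by 5.37 points (3.33 to 7.35), or by 13.1 points over every kept nucleus. Mast cell-like nuclei, known by Cpa3 and Kit, were 76 in HHC, 1.10%, and 10 in CCC, 0.396%, a difference of 0.70 points (0.30 to 1.03). B cell-like nuclei were 3.85% and 2.93%, a difference of 0.92 points (0.07 to 1.68). The intervals of the difference included 0 for endothelial-like (-1.14 to 0.75 points), T or NK cell-like (-0.34 to 1.43), lymphatic endothelial-like (-0.82 to 0.34) and dendritic cell-like nuclei (-0.41 to 0.34). With set-apart nuclei kept this no longer held for endothelial-like (-7.50 points, -8.51 to -6.51), T or NK cell-like (2.34, 1.79 to 2.87) and lymphatic endothelial-like nuclei (0.409, 0.0708 to 0.728), and with called doublets kept it did not hold for endothelial-like (0.995, 0.174 to 1.76) and T or NK cell-like nuclei (1.51, 0.716 to 2.24). With at least 800 genes T or NK cell-like nuclei also differed, by 1.32 points (0.446 to 2.09). Over every kept nucleus all 4 differences were above 0: 1.45 points for endothelial-like (0.892 to 1.98), 1.76 for T or NK cell-like (1.24 to 2.28), 0.42 for lymphatic endothelial-like (0.0817 to 0.741) and 0.232 for dendritic cell-like nuclei (0.0072 to 0.44). A small cluster led by the mitotic genes Top2a, Mki67 and Kif11, which stayed unnamed, was 1.22% of HHC and 0.356% of CCC.

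**Figure D2:**
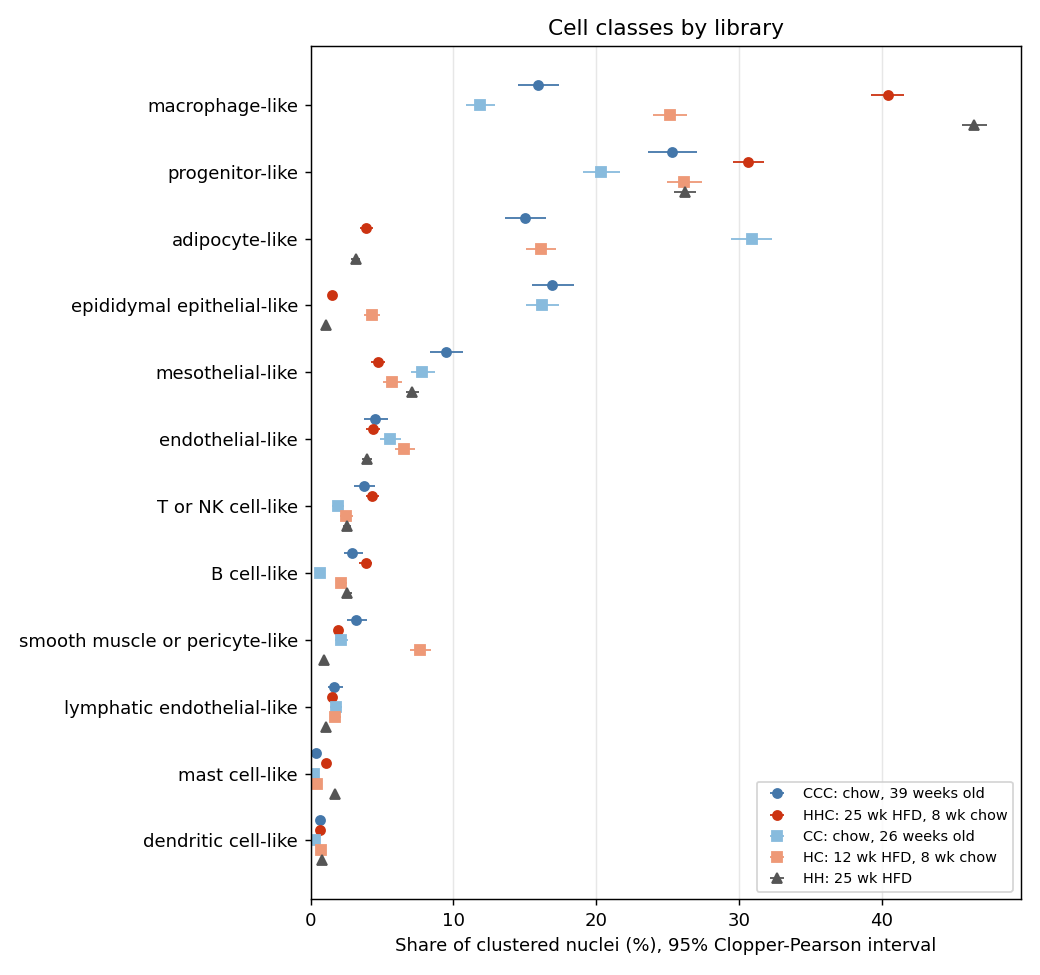
Share of clustered nuclei in each cell class (x axis, percent, with 95% Clopper-Pearson intervals) for 5 libraries, 1 point each. Macrophage-like nuclei were 40.4% in HHC and 15.9% in CCC, and adipocyte-like nuclei 3.86% and 15%.

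The make-up of the macrophage-like nuclei differed as much as their number. LAM-like nuclei were 1101 of 2804 in HHC, 39.3%, and 20 of 402 in CCC, 4.98%, a difference of 34.3 points (31.1 to 36.8). HC, after a shorter HFD, had 36.6%, HH 36.1% and CC 1.28%, so both weight loss libraries stood with the obese library and both chow libraries apart from them. PVM-like nuclei went the other way, with 14.1% in HHC and 44.0% in CCC (-29.9 points, -34.9 to -24.9), beside 17.8% in HC, 13% in HH and 43.4% in CC. It was -19.4 points with set-apart nuclei kept and -85.9 without the library correction, where 21 nuclei of HHC and 292 of CCC were PVM-like.

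The remaining 46.6% of macrophage-like nuclei in HHC and 51.0% in CCC lay in clusters that were given no name, and no cluster was named NPVM-like. Some NPVM-like nuclei were named with called doublets kept (6.06% and 9.38%, -3.33 points, -6.66 to -0.684), without an upper gene limit (-2.09 points) and without the library correction (-0.942). Of the unnamed clusters, 2 small ones carried MHC class II markers but were led by genes such as Flt3, a dendritic cell marker, and Plac8, a monocyte marker, and held 23 and 32 nuclei of HHC and 10 and 6 of CCC. The largest unnamed cluster, led by Adam22, Gpr34 and Hpgd, held 24.6% and 27.6%. The next, led by Hbb-bs, a haemoglobin gene, and by Tshz2, Slit3 and Ebf2, genes of no macrophage list, held 304 nuclei of HHC, 10.8%, and 30 of CCC, 7.46% (3.38 points, 0.19 to 5.87), with a median of 63.4% of the median UMIs of their libraries. One led by Thsd4 and Cd226, with the NPVM markers Ciita and Ccr2, held 5.85% and 9.45% (-3.60 points, -6.96 to -0.947). A small cluster led by interferon-induced genes (Iigp1, Gbp2b, Gbp4 and Ifit2) held 76 nuclei of HHC, 2.71%, and 1 of CCC, 0.249%, a difference of 2.46 points (1.19 to 3.16). Its counterpart held 72 and 5 nuclei at a finer clustering, a difference of 1.33 points, and 85 and 5 with called doublets kept, 1.76 points. Another, led by Alox15, Prg4 and Serpinb2, genes of peritoneal macrophages, was 0.606% and 2.24%. The LAM-like difference was 9.25 points when set-apart nuclei were kept and 23.2 at a finer clustering, the smallest values among the alternatives, and the direction held in each.

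**Figure D3:**
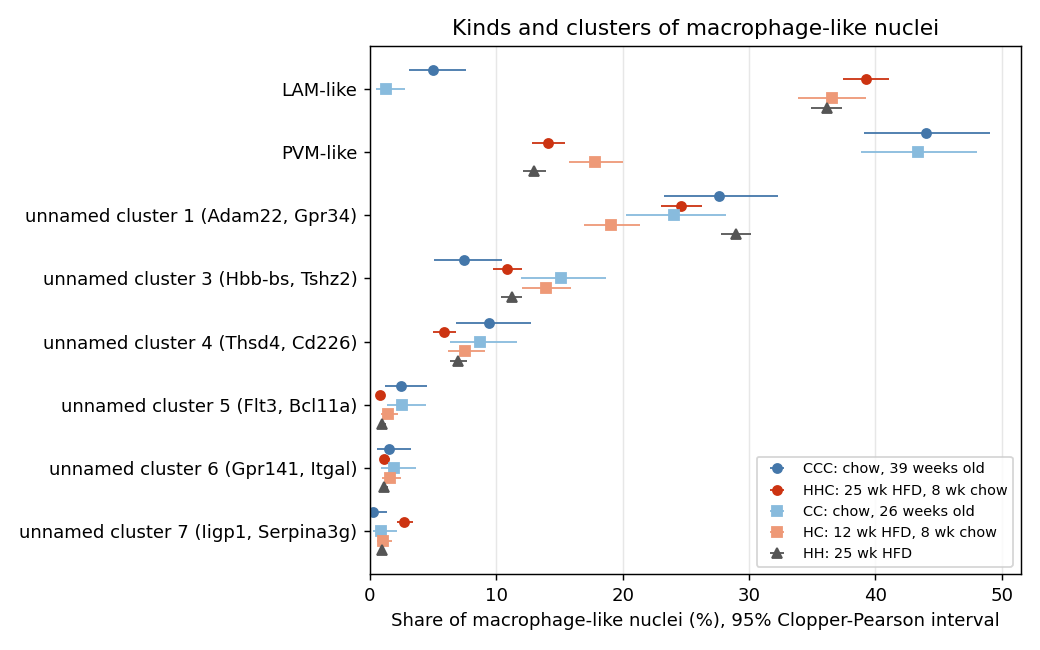
Share of macrophage-like nuclei in each kind and in every unnamed cluster but the smallest (x axis, percent, with 95% Clopper-Pearson intervals) for 5 libraries. LAM-like nuclei were 39.3% in HHC and 4.98% in CCC, and PVM-like nuclei 14.1% and 44.0%.

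Summed over all macrophage-like nuclei, 1206 of 13931 genes with at least 20 UMIs were higher past 2-fold in HHC (8.66%) and 835 were lower (5.99%). All 14 genes of the LAM programme were higher, with a median log2 ratio of 3.11 where the median of all tested genes was 0.08. LAM-like nuclei were named from 9 of these genes, so their level over all macrophages is not independent of the LAM-like share. Mmp12, a macrophage elastase (chr9:7344381-7369499, GRCm38), was at 2667 CPM in HHC and 33.5 in CCC (log2 6.32, 5.80 to 6.89), and at 1557 in HC, 2418 in HH and 18.2 in CC. Gpnmb, a lysosomal glycoprotein of LAMs (chr6:49036546-49070929), was at 3577 and 97.0 CPM (log2 5.2, 4.90 to 5.52). Trem2, the lipid receptor that drives the programme, was at 241 and 31.2 CPM (log2 2.95). In both weight loss libraries and in HH each of these 3 genes stood above both chow libraries.

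These levels stand beside a high background, since mesothelial-like nuclei of HHC held Mmp12 at 1262 CPM, Gpnmb at 1265 and Trem2 at 142. Only Atp6v0d2 and Lgals3 of the 14 were at 3 times that background or more in HHC. Atp6v0d2, a subunit of the proton pump that acidifies lysosomes (chr4:19876841-19922605), was at 1367 CPM in HHC and 139 in CCC (log2 3.29, 3.04 to 3.56) against a background of 89.1 and 1.99, and at 1114 in HC, 1161 in HH and 25.8 in CC. Lgals3, which encodes galectin-3, a marker of activated macrophages, was at 1304 and 227 CPM (log2 2.52, 2.32 to 2.73), with a background of 230 and 69.6. Acp5, an acid phosphatase, was at 44.7 CPM in HHC with a background of 46.0 and cannot be read as expression there.

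The resident perivascular programme was lower: 10 of its 12 genes were past 2-fold, with a median log2 ratio of -1.87, and 9 of these 10 were at 3 times the background or more in CCC. PVM-like nuclei were named from 8 of the 12, so their level over all macrophages is not independent of the PVM-like share. F13a1, a coagulation factor subunit made by resident macrophages (chr13:36867178-37050244), was at 981 CPM in HHC and 5055 in CCC (log2 -2.37, -2.42 to -2.32), and at 1009 in HC, 862 in HH and 4507 in CC. Cd163, the haemoglobin scavenger receptor, was at 70.0 and 595 CPM (log2 -3.09, -3.25 to -2.92). Lyve1, a hyaluronan receptor, was at 9.29 and 82.5 CPM, and Timd4, a phosphatidylserine receptor of long-lived resident macrophages, at 11.1 and 95.9. Mrc1, the mannose receptor, was at 1170 and 2573 CPM (log2 -1.14). Stab1 (log2 -0.45) and Pf4 (-0.85) were not past 2-fold. Gas6, counted among the 10, had a higher level in mesothelial-like nuclei of both libraries than in macrophage-like nuclei.

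**Figure D4:**
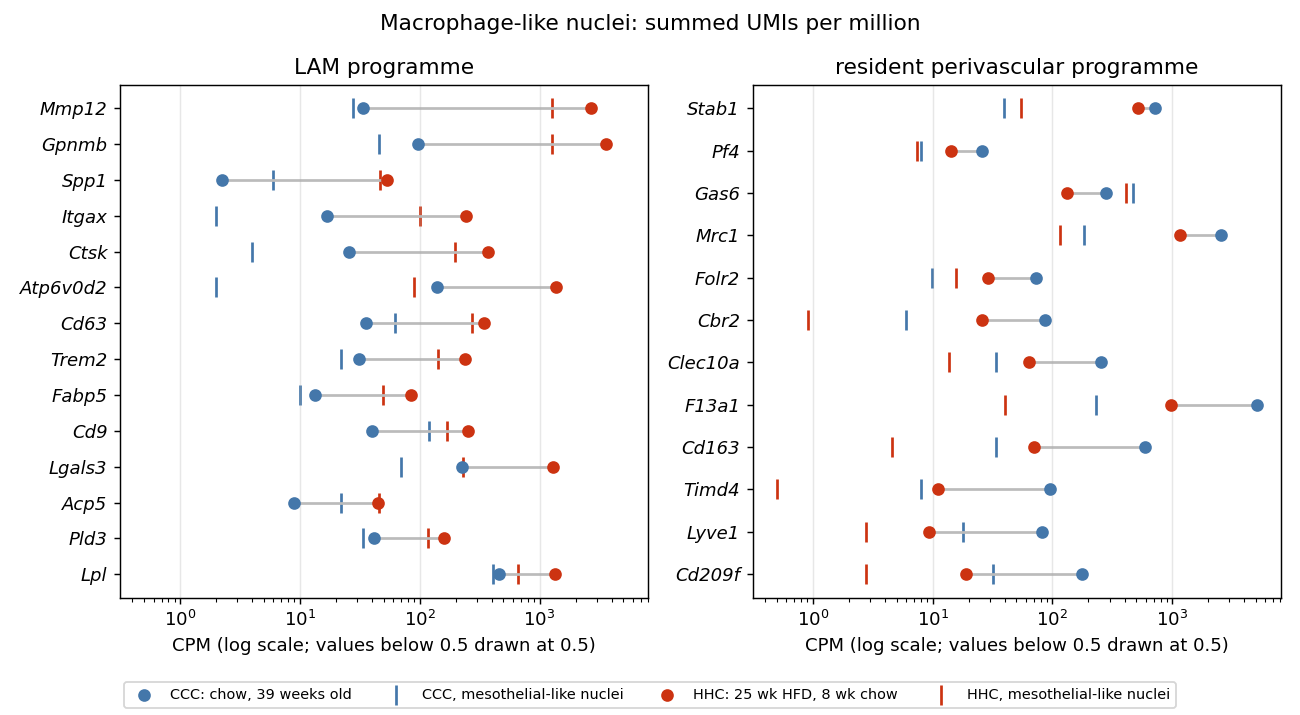
CPM in macrophage-like nuclei (points, log scale) of CCC (blue) and HHC (red) for the LAM programme (left) and the resident perivascular programme (right), with its background in mesothelial-like nuclei as ticks. Mmp12 was at 2667 CPM in HHC and 33.5 in CCC, and F13a1 at 981 and 5055.

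Genes of the lysosome, where macrophages digest engulfed lipid and debris, were higher in part: 14 of 25 tested genes were past 2-fold and none lower, with a median log2 ratio of 1.20. Ctsd, an aspartic protease, was at 1179 CPM in HHC and 91.4 in CCC (log2 3.69), but mesothelial-like nuclei of HHC held 1004. Ctsb was at 1824 and 482 CPM with a background of 988, and Lipa, the acid lipase that splits cholesteryl esters, at 592 and 114 with a background of 210. Atp6v0d2, Atp6v1a and Atp6v1b2, all subunits of the proton pump, were the 3 genes at 3 times the background or more. Atp6v1b2 was at 545 and 190 CPM (log2 1.52, 1.30 to 1.75) and Atp6v1a at 361 and 157 (log2 1.20, 0.96 to 1.45). Transcription factors of the MiT family switch on lysosome genes, and Mitf, Tfeb and Tfe3 of this family were not past 2-fold. Mitf was at 2822 and 1712 CPM (log2 0.72), Tfeb at 265 and 200 (0.41) and Tfe3 at 74.5 and 66.9 (0.15). Tfec, a further member, is not described here.

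MiT factors bind the word TCACGTG, part of the motif found at many lysosomal promoters, so the promoters of the lysosome and LAM genes were searched for it on both strands (it reads CACGTGA on the other strand and holds the general E-box CACGTG). RefSeq promoters of GRCm38.p6, from 250 bases before to 50 after the start, were at hand for 20 of the 26 genes of these lists that were higher, and 4 of them (20%), all of the lysosome list, held the word. It was in 2 of 9 promoters (22.2%) of the other 12 genes, and in 1037 of all 27025 (3.84%). The 6 windows are shown so that the letters around the word, in capitals, can be compared between genes that were higher and genes that were not. The promoters of Ctsd, Lamp1, Gla and Mcoln1 hold further matches at other places, and in Atp6v1a and Atp6v0d1 a reverse match overlaps that shown. For each gene the first match of the word as spelled, read along the strand of the gene, is printed. The letters are a match and not a measured site.
Ctsd, higher, chr7:142387908-142387937, minus strand: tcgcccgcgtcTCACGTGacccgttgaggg
Lamp1, higher, chr8:13159088-13159117, plus strand: agggcaagataTCACGTGgtccagcgccca
Atp6v1a, higher, chr16:44139373-44139402, minus strand: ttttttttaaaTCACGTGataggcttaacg
Gla, higher, chrX:134601215-134601244, minus strand: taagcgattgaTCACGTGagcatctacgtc
Mcoln1, not past 2-fold, chr8:3500436-3500465, plus strand: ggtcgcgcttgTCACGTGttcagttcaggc
Atp6v0d1, not past 2-fold, chr8:105566050-105566079, minus strand: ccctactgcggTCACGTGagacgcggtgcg

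Beside the promoters, Lamp1, a lysosomal membrane protein, was at 297 CPM in HHC and 117 in CCC, and Gla, the enzyme that cleaves galactose from glycolipids, at 35.9 and 2.23. Mcoln1, the calcium channel of the lysosome, was at 32.6 and 36.8 CPM (log2 -0.17) and Atp6v0d1, the general form of the pump subunit, at 200 and 157 (0.35). The word was thus present in promoters of genes with ratios on either side of the 2-fold limit.

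Of the cholesterol handling genes 8 of 11 were higher past 2-fold, none was lower, and 5 of the 8, Abcg1, Nr1h3 and Soat1 among them, were at 3 times the background or more. Soat1, which esterifies cholesterol for storage, was at 458 CPM in HHC and 129 in CCC (log2 1.83, 1.56 to 2.10), and Abcg1, which exports it, at 255 and 87.0 (1.55, 1.23 to 1.90). Abca1, the other main exporter, was at 1018 and 657 CPM (log2 0.63) and not past 2-fold. Cd36, a fatty acid and oxidised lipid receptor, was at 3329 and 1231 CPM (log2 1.44), with 2758 in HC, 3587 in HH and 1561 in CC. Mgll, which encodes monoglyceride lipase, was at 422 and 74.7 CPM, with 328 in HC, 77.7 in HH and 197 in CC. Intake, storage and export genes were thus each represented among the genes that were higher.

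Inflammatory genes went both ways. Of 18 tested chemokine and cytokine genes 3 were higher and 1 lower, with a median log2 ratio of -0.27. Over all genes tested in macrophage-like nuclei 8.66% were higher and 5.99% lower. Tnf was at 23.5 CPM in HHC and 10.0 in CCC (log2 1.22, 0.28 to 2.37) with a background of 0, beside 17.0 in HC, 31.2 in HH and 0.699 in CC. Il1b, a main inflammatory cytokine, had fewer than the 20 UMIs needed. Ccl2, which recruits monocytes, was at 8.41 and 10.0 CPM (log2 -0.26), and at 38.3 in HH. Cxcl10 and C3 were higher but under the background. Of the 8 MHC class II genes 1, Ctss, was higher, and Cd74 was at 306 and 345 CPM (log2 -0.17). Of the 12 listed immediate early genes 3 were higher past 2-fold and 1 lower, and of the higher ones Atf3 and Fos were at 3 times the background or more. Atf3, a stress-induced transcription factor, was at 156 and 17.8 CPM (log2 3.12, 2.42 to 3.93), with 200 in HC and 252 in HH.

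The named rule, which ranks genes by the interval bound nearest to 0, gave Mmp12, Gpnmb, Efr3b, Mfge8 and Npas2 as the leading higher genes of macrophage-like nuclei and Ifi202b, Slc15a2, Cd209b, Cd209d and Gfra2 as the leading lower ones. Efr3b, a plasma membrane scaffold of phosphoinositide signalling, was at 199 CPM in HHC and 3.35 in CCC (log2 5.89), with 280 in HC, 260 in HH and 14 in CC. Npas2, a clock transcription factor, was at 75.9 and 1.11 CPM, with 1 UMI in CCC and an interval of log2 3.61 to 11.4. Mfge8, which bridges apoptotic cells to phagocytes, was at 468 and 21.2 CPM, yet at 456 in mesothelial-like nuclei of HHC. Gfra2, a receptor for neurturin on resident macrophages, was at 23.7 and 321 CPM (log2 -3.76, -4.02 to -3.51), with 52.8 in HC, 23.1 in HH and 344 in CC. Ifi202b, an interferon-inducible DNA sensor, was at 4.89 and 129 CPM, but at 5.59 in CC, 2.0 in HC and 5.25 in HH, so that CCC alone was high.

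Genes chosen after their values were seen, with the higher library at 3 times the background or more, included Fat3, an atypical cadherin (587 and 39.0 CPM, log2 3.91, 3.43 to 4.43), with 780 in HC, 815 in HH and 11.2 in CC. Rgs1, a regulator of chemokine receptor signalling, was at 218 and 17.8 CPM. Retnla and Mgl2, both markers of alternative activation, were lower, at 18.4 and 230 CPM and at 7.72 and 104 CPM. Retnla was at 145 CPM in HH and 18.5 in HC, so both weight loss libraries lay below the obese one. At 3 times the stricter level, the higher of the mesothelial-like and endothelial-like CPM, 247 genes were higher and 221 lower in macrophage-like nuclei.

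Within PVM-like nuclei alone 559 of 9099 genes were higher (6.14%) and 270 lower (2.97%), of which 59 and 60 were at 3 times the background or more. Among the 12 resident genes 4 were lower. That the nuclei of both libraries shared clusters rests on the library correction: without it, 1756 and 841 of the 2724 macrophage-like nuclei of HHC lay in 2 clusters that held 22 and 3 nuclei of CCC. The lower genes were Cd163 at 235 CPM in HHC and 982 in CCC (log2 -2.06, -2.27 to -1.85), Timd4 at 39.5 and 151, Lyve1 at 48.2 and 153, and Cd209f at 116 and 343, and all 4 were at 3 times the background or more in CCC. Mrc1 was at 3251 and 3278 CPM (log2 -0.01, -0.10 to 0.08), Stab1 at 1288 and 1013 (0.35) and F13a1 at 4918 and 7994 (-0.70). The lower level of Mrc1 over all macrophage-like nuclei was thus not seen within this kind. Mrc1 is among the markers from which the kind was named, so its level there is not independent of the naming. All 14 LAM genes were also higher in PVM-like nuclei, but none at 3 times the background, and 9 of them at or below it: Gpnmb was at 1289 CPM and its background was 1265.

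Higher genes of PVM-like nuclei that cleared the background, chosen after their values were seen, included St18, a zinc finger transcription factor (267 and 24.3 CPM, log2 3.46), Pde7b, a cyclic AMP phosphodiesterase (1077 and 350, 1.62), Cd84, a SLAM family receptor (750 and 241, 1.64), and Ms4a7, a macrophage membrane protein (415 and 141, 1.56). HH had 205 CPM of St18 and 1233 of Pde7b, HC 146 and 969, and CC 14.9 and 313. In the unnamed cluster led by Adam22 and Gpr34, 669 of 10125 genes were higher (6.61%) and 424 lower (4.19%). At 3 times the background or more were 145 and 99 of them. There Atp6v0d2 was at 1232 and 129 CPM (log2 3.25) and Cd84 at 1359 and 225 (2.60), while F13a1 was at 729 and 4275 (-2.55). Differences in these genes were thus read in clusters not named LAM-like, but the border of that kind moved with the handling. LAM-like nuclei were 39.3% of macrophage-like nuclei of HHC, 25.5% at a finer clustering and 11.2% with set-apart nuclei kept. Atp6v0d2 is itself a marker from which LAM-like nuclei were named. Whether the nuclei of the 2 libraries in these clusters are alike was not tested.

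In adipocyte-like nuclei 3 of the 77 tested genes of 8 metabolic lists were higher past 2-fold (3.90%) and 4 lower (5.19%), to be read against the shares over all genes. Of all 10508 genes tested, 815 were higher past 2-fold (7.76%) and 315 lower (3%), and the count of lower genes was 940 with set-apart nuclei kept and 965 with CC as the control. The 815 included 12 LAM programme genes and 6 MHC class II genes that were all at or below their background in HHC, and 91 higher and 70 lower genes were at 3 times the background or more. Before the library correction the adipocytes of the pair lay in different clusters, 1 with 262 nuclei of HHC and 2 of CCC and another with 4 and 354. Summed UMIs were 1339469 in HHC and 1821685 in CCC, with medians of 5050.5 and 4915 UMIs per nucleus. Macrophage markers made up 8.44 UMIs per 10000 in adipocyte-like nuclei of HHC and 5.03 in CCC.

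No gene of 4 lists was past 2-fold: the 11 genes of de novo fatty acid synthesis, the 8 of fatty acid uptake, the 9 of insulin signalling and the 11 adipogenic transcription factors. Acaca, which makes malonyl-CoA for fatty acid synthesis, was at 1356 CPM in HHC and 820 in CCC (log2 0.73, 0.63 to 0.82), and Fasn, the synthase itself, at 90.3 and 85.6 (0.08, -0.28 to 0.43). Pparg, the master regulator of the adipocyte, was at 3460 and 4323 CPM (log2 -0.32), and Slc2a4, the insulin-responsive glucose transporter, at 35.1 and 48.9 (-0.48, -1.02 to 0.05). Among adipokines, Adipoq was at 200 and 198 CPM (log2 0.02, -0.22 to 0.25) and Lep at 446 and 512 (-0.20), and of the 7 tested only Rbp4, the retinol carrier, was past 2-fold lower, at 43.3 and 86.7.

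The lipolysis and triglyceride lists each held 1 lower gene, Adrb3 and Pck1, and both belong to the 10 adipocyte markers. A low share of these markers was part of the rule that set apart 2640 adipocyte nuclei of CCC and none of HHC. The ratios of the 2 genes are therefore not independent of that step. Kept adipocyte-like nuclei held 97.9 marker UMIs per 10000 in CCC and 73.7 in HHC. Adrb3, the beta-3 adrenergic receptor that starts lipolysis (chr8:27225776-27250616), was at 361 CPM in HHC (background 15.6) and 1020 in CCC (background 161), log2 -1.50 (-1.65 to -1.35). It was at 954 CPM in CC, 602 in HC and 895 in HH, so HHC was the lowest of the 5 libraries. The other 10 lipolysis genes were not past 2-fold, among them the lipases Lipe (log2 -0.30) and Pnpla2 (0.17) and the droplet coat Plin1 (0.12). Pck1, the key enzyme of glyceroneogenesis (chr2:173153048-173159273), was at 255 and 532 CPM (log2 -1.06, -1.24 to -0.88), with 426 in CC, 397 in HC and 306 in HH. Dgat2, which makes triglyceride, was at 756 and 1306 CPM (log2 -0.79) and not past 2-fold.

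Fatty acid oxidation had 3 higher genes and 1 lower of 12, all at low levels. Cpt1b, a carnitine transferase, was at 11.2 and 3.29 CPM, Pdk4, which diverts glucose from oxidation, at 18.7 and 9.33 (HH 189), and Cyp4b1, a fatty acid hydroxylase, at 26.1 and 2.20 (log2 3.57, 2.09 to 5.53), while Cpt2 was lower at 19.4 and 39.0. Cyp4b1 was at 20.2 CPM in CC, so its low level in CCC was not shared by the other chow library. Of 9 angiogenesis genes 2 were higher and clear of the background: Angpt1, a ligand that steadies vessels (482 and 125 CPM, log2 1.94, 1.72 to 2.17), and Angpt2, its antagonist (51.5 and 25.3). CC had 377 CPM of Angpt1, nearer to HHC than to CCC. Adam12, a metalloprotease of early adipogenesis and fibrosis, was at 337 and 109 CPM, with 400 in CC, 424 in HC and 740 in HH.

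**Figure D5:**
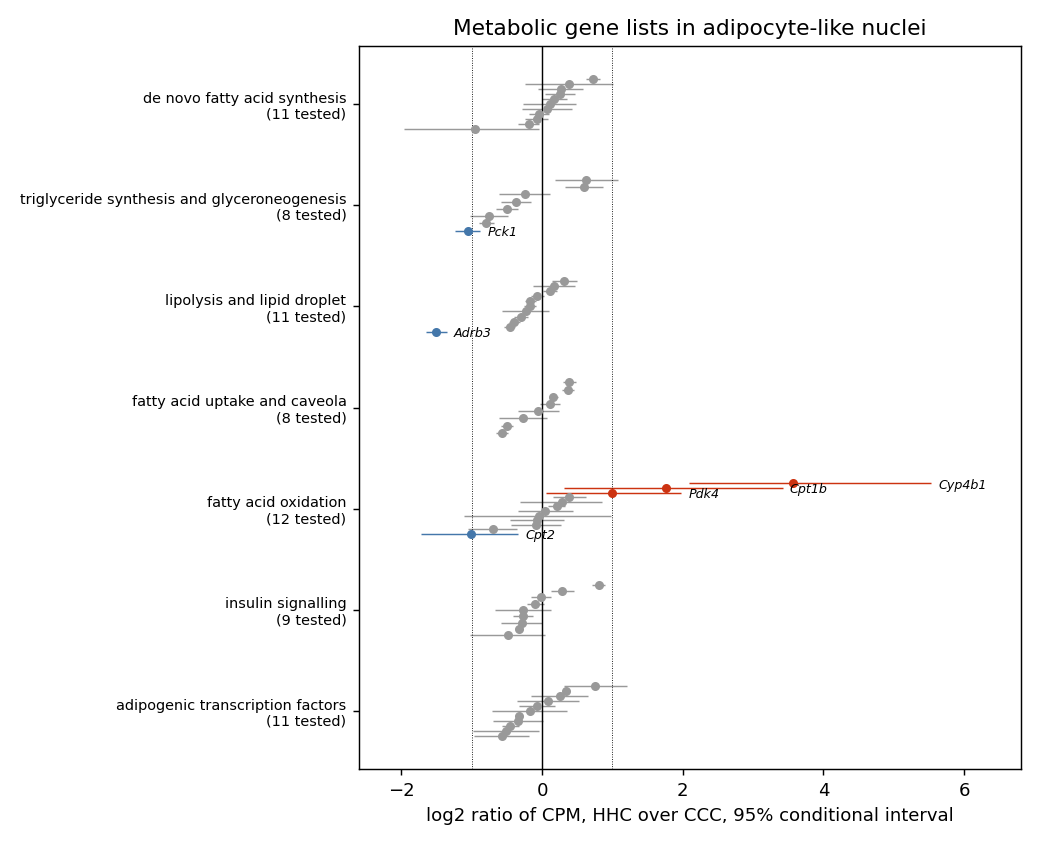
Log2 ratio of CPM in adipocyte-like nuclei, HHC over CCC (x axis), for every tested gene of 7 metabolic lists, with 95% conditional intervals. Genes past 2-fold are named: Adrb3 (-1.50) and Pck1 (-1.06) were lower with narrow intervals, and most other genes lay within 2-fold.

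The genes that the study's own text names in adipocytes were chosen on these samples and are no independent evidence: 5 of 9 tested were higher and 1 lower. Runx2, a transcription factor of bone and fibrosis, was at 110 CPM in HHC and 48.3 in CCC (log2 1.19, 0.80 to 1.59; background 24.8 and 19.9), with 120 in HH, 51.8 in HC and 29.4 in CC. It was higher in macrophage-like nuclei as well (170 and 64.7 CPM) and in progenitor-like nuclei (152 and 39.7). B cell-like and epididymal epithelial-like nuclei also had it higher, at 3 times the background or more. The higher level of Runx2 was thus not particular to adipocyte-like nuclei, and the part of free RNA in it was not tested. Cyp2e1, a cytochrome P450 of fatty acid and ethanol oxidation, was lower at 81.4 and 254 CPM (log2 -1.64, -1.96 to -1.34), with 132 in HH, 457 in HC and 849 in CC. Ctsd, Tyrobp, Lyz2 and Tmsb4x were higher but below their background, for Ctsd 652 CPM against 1004 in mesothelial-like nuclei of HHC. Maob, monoamine oxidase B, was at 66.4 and 84.0 CPM (log2 -0.34).

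Leading adipocyte genes, some of them chosen after their values were seen, began with Gnal, the G protein alpha subunit that stimulates adenylyl cyclase (chr18:67088216-67226792). It was at 181 CPM in HHC and 3.84 in CCC (log2 5.56, 4.49 to 6.88), with 56.0 in HC, 111 in HH and 14.6 in CC, the highest in HHC of the 5. Adcy5, an adenylyl cyclase, was at 418 and 107 CPM (log2 1.97), and Grb14, an inhibitor of the insulin receptor, at 425 and 122 (1.80), with 273 in HC, 238 in HH and 68.2 in CC. P2ry14, the UDP-glucose receptor, was at 137 and 34.6 CPM, with 241 in HH, 27.1 in HC and 14.2 in CC. Cadps, a factor of vesicle release that led the lower genes, was at 76.1 and 372 CPM, but at 58.8 in CC, 52.1 in HC and 15.8 in HH, so CCC alone was high. The named rule also gave Ly9, Cd52 and Naip2, immune genes at 17.2 to 19.4 CPM in HHC against backgrounds of 10.1 to 17.5, as higher, and Ccnjl, Dnah3, Erbb4 and Klhl29 as lower. Klhl29 was at 189 and 640 CPM beside a background of 461 and 515. Dnah3, an axonemal dynein, was at 43.3 and 182 CPM (log2 -2.07), with 9.63 in HH, 54.2 in HC and 115 in CC, and Erbb4, a neuregulin receptor, at 9.71 and 53.2, with 19.3 in HH, 43.2 in HC and 74.9 in CC. Both were lowest in libraries with 25 weeks of HFD behind them.

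Progenitor-like nuclei had 1231 of 14014 genes higher (8.78%) and 363 lower (2.59%), of which 74 and 70 were at 3 times the background or more. Here too the pair lay apart before the library correction, with 1639 nuclei of HHC and 3 of CCC in the largest progenitor cluster of HHC and 11 and 525 in that of CCC, so cluster shares and ratios within clusters rest on the correction. The lower genes were 1008 with the background subtracted and 1003 with CC as the control. Of the collagens none of 13 was past 2-fold, with Col1a1 at 66.6 CPM in HHC and 78.2 in CCC (log2 -0.23, -0.52 to 0.07) and Col6a3 at 344 and 233 (0.56). In the list of matrix remodelling and fibrosis 3 of 23 genes were higher and 1 lower. Postn, the matricellular protein periostin, was at 105 and 34.0 CPM (log2 1.62, 1.22 to 2.04; background 17.5 and 19.9), with 59.7 in HC, 284 in HH and 24.2 in CC. Mmp3, a stromelysin, was at 15.8 and 0.63 CPM, with 69.4 in HH and an interval of log2 2.14 to 9.96 on the 1 UMI of CCC. Ccn2, a target of TGF-beta and mechanical signals, was lower at 9.93 and 30.9 CPM.

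Of 8 fibro-inflammatory progenitor genes 2 were lower, with a median log2 ratio of -0.85. Pi16, a peptidase inhibitor of this progenitor state (chr17:29317680-29330593), was at 97.2 and 246 CPM (log2 -1.34, -1.52 to -1.16), with 53.3 in HC, 373 in HH and 137 in CC. The cluster led by Sema3e and Pi16 was itself smaller, 12.9% of progenitor-like nuclei in HHC and 19.2% in CCC, and within it Pi16 was at 480 and 1057 CPM (log2 -1.14). In that cluster 443 of 8095 genes were higher (5.47%) and 179 lower (2.21%), of which 25 and 36 were at 3 times the background or more. Sema3c was lower too, but mesothelial-like nuclei held more of it than progenitor-like nuclei in both libraries.

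Of 8 committed preadipocyte genes 2 were higher, Icam1 (63.0 and 23.3 CPM, background 28.5 in HHC) and Lpl (745 and 305, background 658), and Pparg was at 248 and 229 CPM (log2 0.12, -0.05 to 0.28). The cluster led by Amph, Pde11a and Fgf7 held 81.9% of progenitor-like nuclei in HHC and 69.8% in CCC, with 1247 of 13422 genes higher (9.29%) and 325 lower (2.42%). At 3 times the background or more were 83 and 62 of these genes. Ednra, the endothelin A receptor, was at 91.0 and 15.1 CPM there (log2 2.59, 1.90 to 3.39) and at 102 in HC, 107 in HH and 19.3 in CC. Vipr2, a receptor for vasoactive intestinal peptide, was at 26.2 and 1.77 CPM (log2 3.89, 2.01 to 6.95, on 2 UMIs in CCC), and Csmd1, a complement control protein, at 688 and 149. Dchs2 and Lrrtm3, both adhesion proteins, were lower, at 104 and 395 CPM and at 69.9 and 277 CPM. HC and HH lay on the side of HHC for Ednra, Vipr2 and Dchs2, which were chosen after their values were seen.

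Inflammatory genes in progenitor-like nuclei were 5 higher of 16 tested (31.3%) and none lower, but none of the 5 was at 3 times the background. Ccl2 was at 20.6 and 8.20 CPM (background 11.0 in HHC), C3 at 477 and 227 (background 676) and Cxcl13, the B cell chemoattractant, at 11.6 and 1.89 (background 30.3). By the named rule the leading higher genes were Trem2, Gpnmb, Lyz2, Mpeg1 and Vsig8, and each was close to its background in HHC, from Trem2 with 143 CPM against 142 to Gpnmb with 1444 against 1265. These are genes of macrophages, and the part of free RNA in their ratios was not tested. The leading lower genes were Syt1, Pld5, Dcc, Pappa2 and Dio3os, of which Pld5 was at 8.39 and 63.7 CPM (log2 -2.92), with 4.89 in HC, 3.62 in HH and 44.4 in CC.

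In endothelial-like nuclei 458 of 8159 genes were higher (5.61%) and 222 lower (2.72%), of which 66 and 34 were at 3 times the background or more. Of the LAM programme 13 of 14 genes were higher here as well, 1 of them, Fabp5, at 3 times the background or more. Gpnmb, Mmp12 and Ctsk led the named rule, Gpnmb at 1821 CPM in HHC beside a background of 1265. Of the MHC class II genes 6 of 8 were higher, none at 3 times the background, where macrophage-like nuclei had 1 of 8 higher. Lipid handling genes had 1 higher of 10, Fabp5, a fatty acid carrier that is also a LAM programme gene, at 174 and 68.8 CPM (log2 1.34, 0.57 to 2.21; background 49.6 and 9.94). Cd36 was at 2846 and 1936 CPM (log2 0.56) and Gpihbp1, which anchors lipoprotein lipase on capillaries, at 263 and 362 (-0.46, -0.84 to -0.07). Vcam1, the leukocyte adhesion molecule, was at 95.5 and 45.9 CPM (log2 1.06, 0.10 to 2.17), with 252 in HH, 43.8 in HC and 22.7 in CC. The VEGF receptors Kdr (log2 -0.81) and Flt1 (-0.42) were not past 2-fold. Ifi27l2a, an interferon-induced gene, was at 288 and 32.1 CPM, but at 247 in CC, 202 in HC and 255 in HH, so CCC alone was low, with 7 UMIs.

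Mesothelial-like nuclei, which line the surface of the depot, had 412 of 9539 genes higher (4.32%) and 429 lower (4.5%), or 89 and 78 at 3 times the background. Before the library correction the pair lay apart in this class too. The main cluster of HHC held 311 of its nuclei and 8 of CCC, and those of CCC held 2 and 155, and 0 and 78. These ratios thus also rest on the correction. Gsdme, a pore-forming gasdermin, was at 453 and 145 CPM (log2 1.64, 1.29 to 2.02; background in endothelial-like nuclei 13.5 and 13.8), with 973 in HH, 76.3 in HC and 53.8 in CC. Tmem108, a transmembrane protein, was at 361 and 113 CPM. Hmcn1, an extracellular matrix protein, led the named rule at 320 and 51.7 CPM (log2 2.63), but its background was 185 and 216. Esrrg, an orphan nuclear receptor of oxidative metabolism, was at 0.919 and 75.5 CPM (log2 -6.36, -11.7 to -3.80, on 1 UMI in HHC; background 13.5 and 45.9) and Tenm4, a teneurin adhesion protein, at 61.6 and 511 (background 114 and 211), with 15.1 in HH, 352 in HC and 677 in CC. Of 11 lipolysis and lipid droplet genes 10 were lower, none at 3 times the background in CCC, where adipocyte markers were also the more abundant in other classes.

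T or NK cell-like nuclei had 383 of 7208 genes higher (5.31%) and 206 lower (2.86%), of which 30 and 42 were at 3 times the background or more. Of 5 tested cell cycle genes 4 were higher: Top2a and Mki67, both made by dividing cells, were at 75.3 and 45.2 CPM, with 125 and 43.2 in HH. CCC held 1 UMI of each (7.19 CPM), so the intervals were wide, log2 0.84 to 8.72 for Top2a and 0.06 to 8.00 for Mki67. Of 12 tested genes of T and NK cell subsets 3 were lower and none higher. Ncr1, an activating receptor of NK cells, was lower at 75.3 and 165 CPM (log2 -1.13, -1.87 to -0.35), as were Gata3 (55.7 and 144) and Il1rl1, an alarmin receptor (36.2 and 93.5), both genes of type 2 lymphocytes. Tox was at 1901 and 1632 CPM (log2 0.22), with 924 in HC, 2227 in HH and 356 in CC. The leading higher genes by the named rule, Mmp12, Gpnmb and Lipa, were macrophage genes.

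B cell-like nuclei had 429 of 6929 genes higher (6.19%) and 211 lower (3.05%), of which 43 and 30 were at 3 times the background or more. Of 11 tested genes of B cell subsets and plasma cells 3 were higher, Cr2, Jchain and Prdm1, and none lower. Jchain, which joins antibody subunits, was at 174 and 44.8 CPM, and Prdm1, which drives plasma cell fate, at 55.9 and 7.47 (log2 2.90, 0.33 to 8.25, on 1 UMI in CCC). Igkc, the kappa light chain, was at 1696 and 613 CPM (log2 1.47, 1.14 to 1.81; background 240 and 25.8). HH had 1891 CPM of Igkc and 238 of Jchain, whereas HC had 84.8 and 12.7 and CC 176 and 48.0. Cr2, a complement receptor, was at 289 and 97.1 CPM (log2 1.57). Il5ra (129 and 344 CPM) and Cxcr5 (99.3 and 224), a cytokine and a chemokine receptor, were lower. Agbl1, a deglutamylase, was at 377 and 2271 CPM (log2 -2.59), with 512 in CC, 466 in HC and 588 in HH, so CCC alone was high.

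Among the smaller classes, smooth muscle or pericyte-like nuclei had 390 of 6292 genes higher (6.2%) and 243 lower (3.86%). At 3 times the background or more were 29 and 29 of them. The contractile actin Acta2 was at 500 and 1042 CPM (log2 -1.06, -1.36 to -0.76), but at 171 in CC, 906 in HC and 1019 in HH. Ighm, an immunoglobulin heavy chain, was at 2704 and 59.0 CPM, but 10 of the 135 nuclei of HHC held 1066 of its 1185 UMIs. Epididymal epithelial-like nuclei had 807 of 10212 genes higher (7.9%) and 367 lower (3.59%) on 103 nuclei in HHC and 428 in CCC. At 3 times the background or more were 204 and 115 of these genes. Abcb5, a membrane transporter, was at 1289 CPM in HHC and had no UMI in CCC. It was 561-fold higher when CCC is set at 3 counts (log2 9.13, with a lower interval bound of 8.83). Ces5a, a secreted esterase of the epididymis, was at 434 and 3.06 CPM. Before the library correction a small cluster led by Abcb5 and Ces5a held 19 nuclei of HHC and none of CCC. Its part in these class levels was not tested. Abcb5 was at 14 CPM in HC and had no UMI in CC or HH, and Akr1b7, an aldose reductase relative, was at 5305 CPM in HC, 33.7 in CCC and 6.54 in CC with no UMI in HHC. Genes of this class also vary along the epididymis, and the stretch sampled and the diet cannot be told apart.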

How the data were processed

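Nuclei of frozen epididymal fat, 5 mice pooled per library, were sequenced with 10x 3′ chemistry. The authors deposited raw UMI counts per gene and nucleus, made with Cell Ranger 6.1.2 on mm10 with intronic reads (Seurat 4.1.0 is also named in the submitters' processing notes). Barcodes were kept at 500 to 3000 genes and at most 40000 UMIs. Scrublet doublets were removed, at an expected rate of 0.8% per 1000 nuclei in HHC, CCC, HC and CC and by the automatic threshold in HH and the 4 other libraries. Counts of the 9 libraries were clustered in scanpy 1.11.5 (2000 variable genes, 30 components, 20 neighbours, Leiden resolution 0.5) after a Harmony correction written for this work, without mitochondrial genes and Malat1. Low-count clusters (median UMIs under 66.7% of their library, with a competing class at 50% or more of the leading class score) were set apart, as were groups of at least 20 nuclei of 1 library with under 60% of the marker share and under 75% of the median UMIs of the cluster of their class with the highest marker share among those of at least 50 nuclei. These rules were applied anew in each alternative. Nuclei were named from at least 3 markers present in 10% of nuclei and 2-fold enriched, and a cluster with more leading genes of another class stayed unnamed. Members, gene lists and these rules were chosen with earlier results of these data known, and the rules for setting nuclei apart after the class counts of each library had been seen.

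For each class, UMIs were summed per library and given as CPM with the exact conditional 95% interval of the ratio. Shares have Clopper-Pearson and their differences Newcombe intervals. Genes needed 20 UMIs, and a sum of 0 was set at 3 counts. No test was run, because each condition has 1 library. Named genes were the 5 higher and 5 lower past 2-fold whose interval bound nearest to 0 was largest (3 and 3 in classes under 200 nuclei in either library), above their background and with a full gene name, and list members past 2-fold with the most UMIs. Names ending in Rik or starting with Gm were skipped. Coordinates are of GRCm38, GENCODE vM21, and 32144 of 32271 genes matched. The calculation was tested on simulated counts. Some genes that met these rules are not reported here. Alternatives are given below.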

Additional observations from a re-analysis of the deposited data

Results flagged for a closer look

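In 8 cases the difference after 25 weeks of HFD (HHC against CCC) and that after 12 weeks (HC against CC) had opposite signs, each with an interval that excluded 0 in counting error. With 1 library per condition, the difference between them was not tested in any of these. The share of smooth muscle or pericyte-like nuclei was -1.26 points in HHC against CCC and 5.56 in HC against CC, but the first was 0.0935 over all kept nuclei, 0.438 with called doublets kept and -0.00495 without an upper gene limit. Of the 387 such nuclei of HC, 202 lay in a cluster led by Rbfox3, Ryr3 and Mybpc1. That cluster held 11 nuclei of CC, 10 of CCC and 18 of HHC, and Rgs5 and Pdgfrb were not among its enriched markers. In adipocyte-like nuclei Cyp4b1, a fatty acid hydroxylase, had log2 ratios of 3.57 and -2.63. In endothelial-like nuclei the ratios were -2.55 and 2.05 for Csmd1, a complement control protein, -2.91 and 1.30 for Sobp, and -2.45 and 1.54 for Tmco4. The chow libraries CCC and CC themselves lay apart for these 3 genes, at 1092 and 68.0 CPM of Csmd1, 73.4 and 17.3 of Sobp and 87.2 and 13.3 of Tmco4, and with CC as the control HHC had log2 ratios of 1.45 for Csmd1, 0.26 for Tmco4 and -0.82 for Sobp. Ank3, an ankyrin, was at -3.19 and 1.62 in T or NK cell-like nuclei. The first ratio rests on 11 UMIs in HHC and 21 in CCC, and CCC was at 151 CPM beside a background of 113. In epididymal epithelial-like nuclei Tmem132c was at -4.10 and 4.31, and Akr1b7 at -2.12 (a bound, with no UMI in HHC) and 9.66. The cluster of this class with Akr1b7 among its leading genes held 151 of the 217 nuclei of HC and 8 of the 641 of CC. It held 20 nuclei of HHC and 12 of CCC, and the part of these numbers in the ratios was not tested.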

How the results depend on the processing

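No paired analysis was possible because each condition has 1 library, without replicate numbers. Of the values that answer a comparison, 119 stayed within counting error or within 1.5 times the main count, 69 moved and 2 whose interval excluded 0 changed sign. Shares whose interval included 0 changed sign too: endothelial-like nuclei went from -0.145 to 1.45 over all kept nuclei, 0.995 with called doublets kept and 0.266 without an upper gene limit, and lymphatic endothelial-like nuclei, not counted above, from -0.192 to 0.42 over all kept nuclei, 0.409 with set-apart nuclei kept, 0.170 with doublets kept and 0.0733 with at least 800 genes. For genes named singly, 532 stayed, 91 moved and 7 took the other sign, 1 of them only as a bound. Of the kept nuclei of CCC 54.0% were set apart.

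With set-apart nuclei kept, the differences of shares (HHC minus CCC, in points) were -18.0 for adipocyte-like, 13.3 for progenitor-like, -0.769 for mesothelial-like, -7.50 for endothelial-like, -27.0 for epididymal epithelial-like, 2.34 for T or NK cell-like and 2.29 for B cell-like nuclei, and of macrophage-like nuclei 9.25 for LAM-like and -19.4 for PVM-like. Over all kept nuclei, a denominator added after the data were seen, they were -3.79 for adipocyte-like, 13.1 for progenitor-like, -0.576 for mesothelial-like, 1.45 for endothelial-like, -6.60 for epididymal epithelial-like, 1.76 for T or NK cell-like and 1.76 for B cell-like nuclei, and 0.0935 for smooth muscle or pericyte-like nuclei, whose sign changed from -1.26. With called doublets kept, where setting nuclei apart anew also left more of CCC (3243 clustered nuclei in place of 2527), they were -26.5 for adipocyte-like, 9.94 for progenitor-like, -2.70 for mesothelial-like, 0.995 for endothelial-like, 1.51 for T or NK cell-like, 0.438 for smooth muscle or pericyte-like (sign changed) and -22.2 for PVM-like nuclei. With at least 800 genes they were -12.7 for adipocyte-like, -2.97 for mesothelial-like and -17.1 for epididymal epithelial-like nuclei. Without an upper limit on genes they were -16.2 for adipocyte-like, 27.4 for macrophage-like, -0.00495 for smooth muscle or pericyte-like and 24.2 for LAM-like nuclei. With CC as the control they were -27.0 for adipocyte-like, 10.3 for progenitor-like, 28.5 for macrophage-like, -3.14 for mesothelial-like, -1.21 for endothelial-like, 2.42 for T or NK cell-like, 3.17 for B cell-like, -0.15 for smooth muscle or pericyte-like and 38 for LAM-like nuclei. Without the library correction LAM-like was 30.7 and PVM-like -85.9, and at resolution 1 LAM-like was 23.2. Macrophage-like nuclei stayed between 23.4 and 28.5 points.

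Counts of genes past 2-fold depended on the minimum level. With 100 UMIs they were 256 higher and 75 lower in adipocyte-like, 736 and 128 in progenitor-like and 108 and 88 in mesothelial-like nuclei, and 444 lower in macrophage-like nuclei. At 3 times the background (added after the data were seen) they were 91 and 70, 74 and 70, 89 and 78, and in macrophage-like nuclei 247 and 221. Outside mesothelial-like nuclei these counts used the stricter level, the higher of the mesothelial-like and endothelial-like CPM. With CC as the control there were 965 lower in adipocyte-like, 2030 higher and 1003 lower in progenitor-like, 2069 and 1802 in macrophage-like, and 801 higher in mesothelial-like nuclei. Adipocyte-like nuclei had 1254 higher without an upper gene limit, and 940 lower with set-apart nuclei kept and 971 lower with doublets kept. With the background subtracted the lower genes were 1008 in progenitor-like, 1576 in macrophage-like and 770 in mesothelial-like nuclei, and 697 in the last with 1 UMI as the minimum.

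Signs that changed with the background subtracted were those of Trem2 (-0.37) and Vsig8 (-0.59) in progenitor-like nuclei and Mageb18 (0.27) in T or NK cell-like nuclei. With CC as the control they were Cadps in adipocyte-like (0.37), Csmd1 (1.45) and Tmco4 (0.26) in endothelial-like and, only because HHC without a UMI was set at 3 counts, Akr1b7 in epididymal epithelial-like nuclei (0.24, an upper bound that shows no change of sign). TMM scaling moved the log2 ratios by -0.119 in progenitor-like nuclei and by less in the other classes. The cause of each move was not tested.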

Other observations

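In smooth muscle or pericyte-like nuclei Csmd1 was at 1901 CPM in HHC and 426 in CCC (log2 2.16), while in endothelial-like nuclei it was at 186 and 1092 (log2 -2.55). Adam12, a metalloprotease, was at 755 and 170 CPM in smooth muscle or pericyte-like nuclei (log2 2.15), and higher in adipocyte-like nuclei as well. Art3, a membrane protein of pericytes, was at 128 and 367 CPM (log2 -1.52). Among T or NK cell-like nuclei Il18rap, a cytokine receptor chain, was at 143 and 338 CPM (log2 -1.24).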
